A study of Rattus norvegicus with 6 samples.

Results

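Microtubules are built from alpha- and beta-tubulin, and this account follows 10 rat genes of that system after irradiation with iron ions. They comprise the alpha-tubulin genes Tuba1b and Tuba1c, the beta-tubulin genes Tubb5, Tubb2a, Tubb6 and Tubb4b, and 4 genes whose products control microtubule growth, Stmn1, Tacc3, Ckap5 and Mapre1. The genes were chosen by name, with earlier results of these data known. A gene counted as measured where the array's annotation gave a probe set that symbol and no other. By that rule 8 of the 10 genes were measured, by 13 probe sets, out of 14217 genes with such a probe set on the array. Tuba1b and Tuba1c were not, since their symbols stand together with Tuba1a on 1 shared probe set, which is the value of no single gene. Tubb4b shares a further 2 probe sets with another gene, and these were left out. All 8 measured genes passed the filter on low values through their main probe set, the one with the highest mean over all arrays.

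The samples came from an immortalized line of keratinocytes, the main cells of the epidermis, derived from back skin of newborn male Sprague-Dawley rats. The 3 unirradiated samples had no treatment. The 3 others were given 3 Gy of iron nuclei (56Fe) accelerated to 1.01 GeV per nucleon, a form of radiation met in space. Both groups are the same line with no genetic change named. Each sample was read on 1 Affymetrix rat 230 2.0 array, and the sources used here do not give the time from irradiation to harvest. The series asks, by its title, about gene expression and cell cycle arrest after the ions. No label states that the replicates came from different cultures, so the spread behind each p-value may be technical only, and the labels name no batch.

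Alpha- and beta-tubulin pair into dimers that add to and leave the ends of microtubules, the tracks of transport in interphase and the fibres of the mitotic spindle. Proteins such as stathmin hold dimers back or promote loss from the ends, while polymerases and end-binding proteins favour growth, and in mitosis the balance moves toward fast turnover. Tubulin genes have several close copies, called isotypes, and cells tune tubulin mRNA to the amount of free tubulin. Many genes made in G2 and mitosis carry CCAAT boxes and a short element called CHR, of which TTTGAA is the best known form, near their start sites.

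Irradiated cells held more Tacc3 mRNA and, by a smaller amount, more Tubb4b mRNA. The intensity of Tacc3, which encodes a protein that anchors a microtubule-binding complex on spindle fibres, rose 1.92-fold. That of Tubb4b, a widely expressed beta-tubulin isotype, rose 1.28-fold, but did not pass the test in 8 of 18 alternative settings. Tubb5 and Tubb2a had higher values in every irradiated array but did not pass the test across all probe sets. Tubb6, Ckap5, Mapre1 and Stmn1 overlapped between the groups, and the values of Stmn1, which encodes the dimer-binding protein stathmin, had nearly the same mean in both. In RNA from a whole culture, more cells in a given phase and more RNA per cell cannot be told apart.

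Limma, a linear model with a variance estimate shared across probe sets, called 2 of the 8 measured genes higher and 0 lower at a Benjamini-Hochberg adjusted p under 0.05. At an unadjusted p under 0.05 it gave 4 higher and 0 lower, against 8.77% of all tested genes higher and 6.93% lower. Across the whole array, with each gene read by its main probe set, 207 of 10354 tested genes were called higher, which is 2%, and 80 were called lower, which is 0.773%. The groups did not overlap in 4 of the 8 genes, all with irradiated values on the higher side, as in 11.8% of all tested genes. The log2 changes of all 8 genes were positive and had a median of 0.33, against a median of -9.7e-04 and 5157 of 10354 above 0 over all tested genes. With median centring of the arrays the change of Stmn1 turned to -0.027, so that 7 of the 8 were above 0. The genes and the test were chosen with earlier results of these data known, so these counts are a description.

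The bases before the start sites of 4 genes are shown because they hold the letters of CCAAT boxes and of the CHR in different numbers. They are the 250 bases before each gene's annotated start, from RefSeq's GRCr8 assembly, written 5′ to 3′ along the gene, with matches to the CCAAT box, to the CHR in the form TTTGAA, or to its rarer form TTCGAA in capitals. Both strands were searched, so a CCAAT box on the opposite strand appears as ATTGG and a TTTGAA match there as TTCAAA. The matches in these 4 windows do not overlap each other.
Tacc3, chr14:81289699-81289948, minus strand: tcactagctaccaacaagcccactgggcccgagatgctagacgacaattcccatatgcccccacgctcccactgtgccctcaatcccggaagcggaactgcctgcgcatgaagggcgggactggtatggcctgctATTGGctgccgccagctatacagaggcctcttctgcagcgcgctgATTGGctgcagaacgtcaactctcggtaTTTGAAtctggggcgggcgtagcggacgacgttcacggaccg
Tubb4b, chr3:28438456-28438705, minus strand: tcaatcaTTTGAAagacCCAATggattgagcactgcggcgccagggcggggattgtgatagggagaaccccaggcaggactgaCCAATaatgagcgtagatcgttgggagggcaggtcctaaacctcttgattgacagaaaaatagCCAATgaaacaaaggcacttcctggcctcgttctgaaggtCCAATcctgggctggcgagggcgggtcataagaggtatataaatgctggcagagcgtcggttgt
Ckap5, chr3:97946798-97947047, plus strand: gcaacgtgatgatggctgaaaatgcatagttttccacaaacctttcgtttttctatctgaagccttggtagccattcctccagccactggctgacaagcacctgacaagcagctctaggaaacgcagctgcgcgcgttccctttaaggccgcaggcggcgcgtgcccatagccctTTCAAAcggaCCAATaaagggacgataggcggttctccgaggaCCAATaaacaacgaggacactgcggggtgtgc
Stmn1, chr5:151964929-151965178, plus strand: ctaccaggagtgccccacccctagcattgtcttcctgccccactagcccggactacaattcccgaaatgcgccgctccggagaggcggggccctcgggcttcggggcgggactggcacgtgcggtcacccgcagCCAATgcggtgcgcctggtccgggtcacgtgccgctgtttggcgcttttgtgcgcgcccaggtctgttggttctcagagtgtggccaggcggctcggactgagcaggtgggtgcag
Upstream of Tacc3, a pair of CCAAT matches began 115 and 70 bases before the start and a TTTGAA match 42 bases before it. Upstream of Tubb4b there were 4 CCAAT matches, beginning 233, 167, 104 and 64 bases before the start, and 1 TTTGAA match at 243 bases. Ckap5 held 2 CCAAT matches and 1 TTTGAA match within 75 bases of the start, and Stmn1 held 1 CCAAT match and no TTTGAA in this window. All 10 genes had a window: CCAAT was in 9, TTTGAA in 4, both in the same 4 (Tuba1c, Tubb4b, Tacc3 and Ckap5), TTCGAA in 1 (Tuba1c) and none of the 3 motifs in Tubb2a. Of 8703 windows of tested genes, 35.8% held CCAAT, 9.76% held TTTGAA, 1.80% held TTCGAA and 3.75% held both CCAAT and TTTGAA. Of 176 windows of genes called higher, 57.4% held CCAAT, 25.6% TTTGAA, 7.39% TTCGAA and 19.3% both CCAAT and TTTGAA. These 176 include Tacc3 and Tubb4b, and the motifs were chosen after seeing the data, so the shares are no test. Ckap5 holds both motifs and did not pass the test, and a match in these letters is a description of the sequence only.

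Tacc3 is among the genes of the group whose proteins act on the spindle. Its protein is phosphorylated by the kinase Aurora A and, with clathrin and the polymerase encoded by Ckap5, cross-links spindle fibres. In its main probe set (1372886_at), the unirradiated intensities were 627, 642 and 637 and the irradiated ones 1350.5, 1227 and 1082. The unirradiated arrays lay close together, and every irradiated array was far above them. The mean went from 635 ± 7.63 to 1220 ± 134 (SD, n = 3), a log2 change of 0.92 with an SE of 0.089 (limma adjusted p = 2.0e-04), higher in 3 of 3 irradiated arrays. Log2 changes are differences of log2(intensity + 16), on which dim probe sets appear to change less than their intensities do. Among 18632 tested probe sets it ranked 18th by p. A dimmer second probe set (1391374_at) went from 98.4, 127 and 115 to 325, 262 and 216. That is a 2.36-fold rise with a log2 change of 1.12 and an SE of 0.15 (limma adjusted p = 0.0013), so both probe sets of the gene passed. In both, irradiated replicate 1 was the highest and replicate 3 the lowest of the irradiated arrays. Over all 18 alternative settings the main probe set kept its call, with log2 changes from 0.84 to 1.02.

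The change of Tacc3 was set against that of each other measured gene within the same arrays, as the difference of their log2 values. This difference was larger in irradiated than in unirradiated arrays by 0.57 against Tubb4b, 0.60 against Tubb5, 0.72 against Tubb6, 0.83 against Mapre1 and 0.91 against Stmn1, with no overlap between the groups in these 5. Against Tubb2a (0.34) and Ckap5 (0.53) the groups overlapped. Tacc3 was taken for these 7 pairs because its change was the largest, so the differences are a description with no test.

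**Figure D1:**
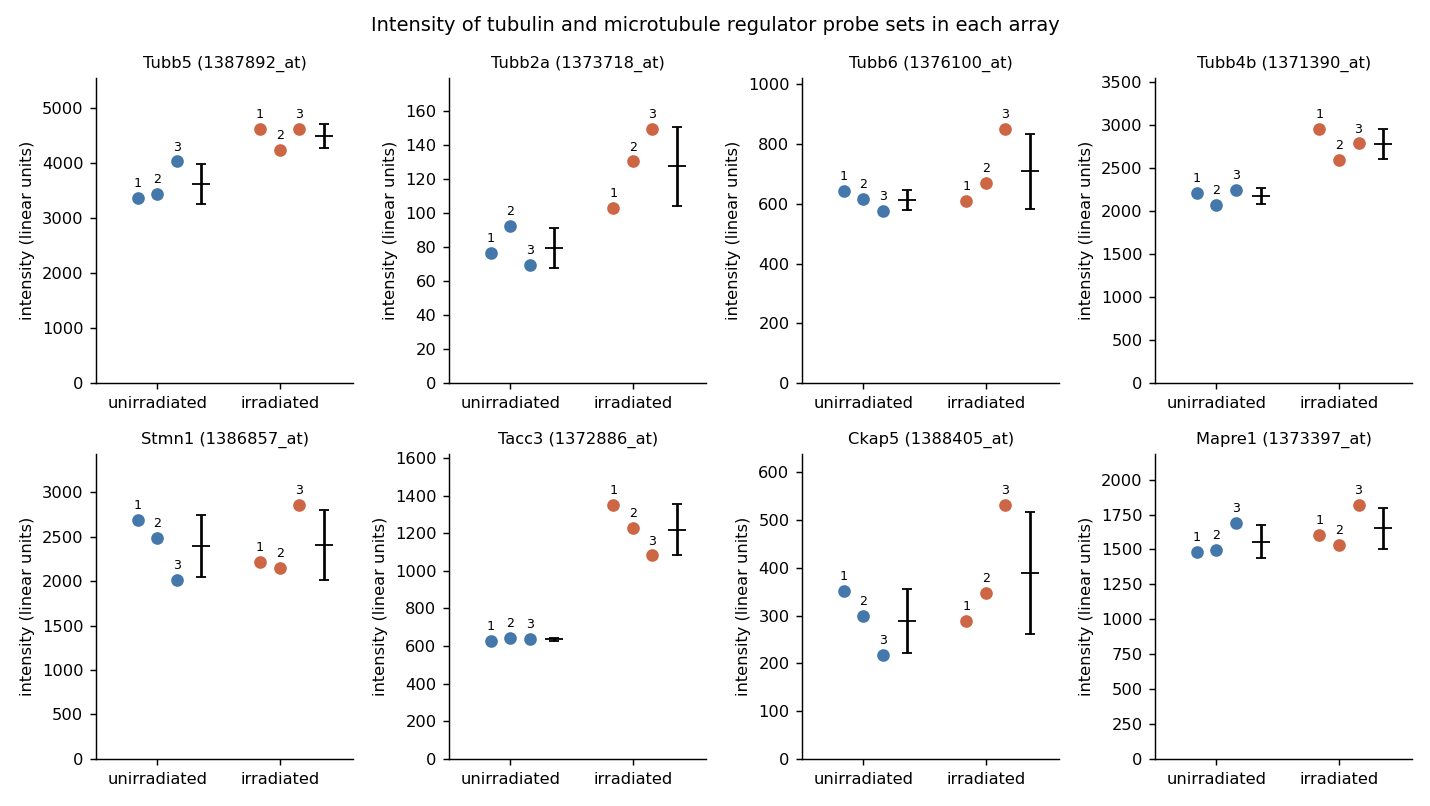
Linear intensity of the main probe set of each measured gene (vertical axes from 0, with a scale of their own), 3 unirradiated arrays in blue and 3 irradiated arrays in orange, numbered by replicate, with the mean and SD in black. The irradiated arrays of Tacc3, at 1082 to 1350.5, are far above the unirradiated ones at 627 to 642, those of Tubb4b, Tubb5 and Tubb2a are above with smaller gaps, and the other 4 genes overlap.

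Among the beta-tubulins, Tubb4b passed the test. Its intensities (1371390_at) were 2218, 2077 and 2244 without and 2955, 2600 and 2790 with irradiation, so every irradiated array lay above every unirradiated one. The mean went from 2180 ± 90.2 to 2782 ± 177 (SD, n = 3), a log2 change of 0.35 with an SE of 0.075 (limma adjusted p = 0.0338). The call is narrow: it ended without any array but irradiated replicate 2 (limma adjusted p from 0.0603 to 0.152), with median centring (0.0751), without the filter on low values (0.105) and without an intensity trend of the variance (0.187). The log2 change itself stayed between 0.30 and 0.44 in all 18 settings.

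Tubb5 encodes the beta-tubulin most abundant in many dividing cells. Its main probe set (1387892_at) had intensities of 3372, 3445 and 4032 without and 4617, 4242 and 4617 with irradiation. The groups did not overlap, and unirradiated replicate 3 was the nearest to the irradiated arrays. The ratio of the means was 1.24 and the log2 change 0.32, with a 95% confidence interval from 0.14 to 0.50 (limma adjusted p = 0.0826). A second probe set (1370290_at), with a mean of 1319 ± 124 without and 1556 ± 134 with irradiation (SD, n = 3), changed by 0.24 on the log2 scale, which was not past the threshold either. With quantile normalization the main probe set passed, at a log2 change of 0.45 (limma adjusted p = 0.0046), as it did with cyclic loess normalization (0.42) and without unirradiated replicate 3 (0.40). The main probe set of Tubb5 is among the brightest on the array, and the brightest 10% of tested probe sets had a median log2 change of -0.066 in the values as deposited.

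Tubb2a, an isotype best known from neurons but present in many cells, was dim here, with a mean intensity near the middle of the tested probe sets. Its intensities (1373718_at) were 76.7, 92.7 and 69.7 without and 103, 130.4 and 149 with irradiation. Every irradiated array was higher, and the spread among them was wide. The means were 79.7 ± 11.8 and 128 ± 23.2 (SD, n = 3), with a log2 change of 0.58 and a 95% confidence interval from 0.25 to 0.91 (limma adjusted p = 0.0786). This was the second highest log2 change among the 8 genes, and 1 of 18 alternative settings called it, the one that averaged the probe sets of each gene (limma adjusted p = 0.0414). Tubb2a had 1 probe set, so its own values did not change in that setting, only the set of values tested with it.

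Tubb6, an isotype known to make microtubule networks less stable when abundant, overlapped between the groups. Its intensities (1376100_at) were 642, 616 and 577 without and 608, 669 and 849 with irradiation, with irradiated replicate 3 apart from the rest. The log2 change was 0.20, with a 95% confidence interval from -0.048 to 0.44 (limma adjusted p = 0.498), and 0.061 without irradiated replicate 3. A second probe set of Tubb6 (1394144_at) had means of 8.63 and 4.87 and was below the filter on low values, so it was not tested.

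The 6 probe sets of the beta-tubulins cannot be checked here for binding of related isotypes, because probe sequences were not used. How far these near-identical copies share signal was not tested, and their changes may not be independent of each other.

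**Figure D2:**
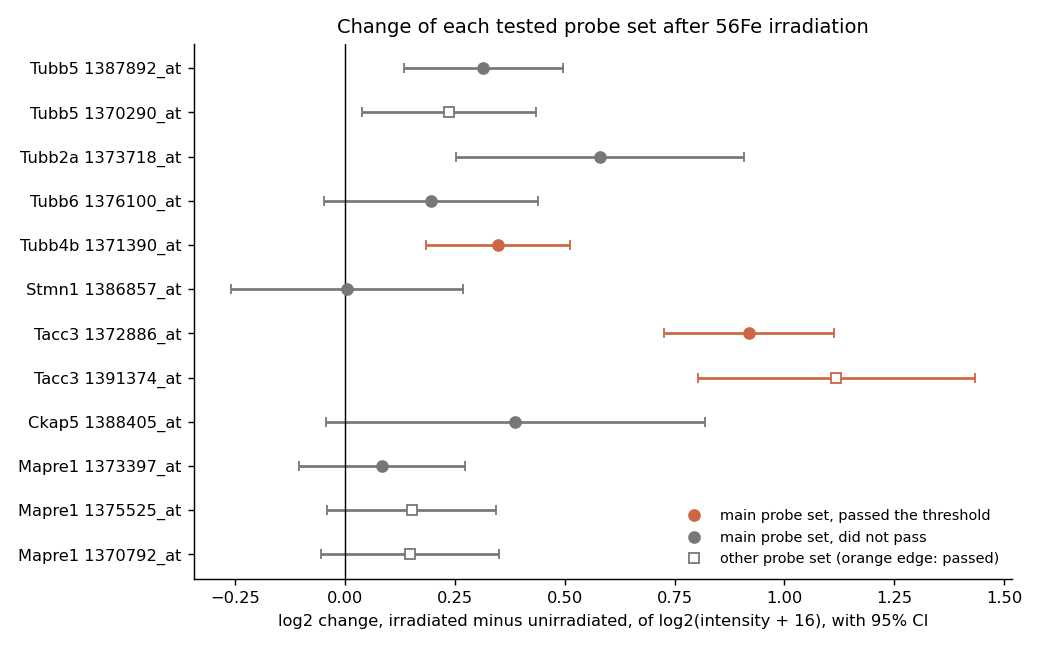
Log2 change, irradiated minus unirradiated, of each of the 12 tested probe sets on the log2(intensity + 16) scale, with its 95% confidence interval from limma (filled circles, main probe sets; open squares, others; orange, passed the threshold). Both probe sets of Tacc3 and that of Tubb4b are orange, the intervals of Tubb5 and Tubb2a exclude 0 without passing after adjustment, and that of Stmn1 runs from -0.26 to 0.27.

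The genes of microtubule dynamics other than Tacc3 did not pass. Stmn1 encodes stathmin, which binds tubulin dimers and promotes shrinkage of microtubules until kinases switch it off in mitosis. Its intensities (1386857_at) were 2692, 2485 and 2011 without and 2216, 2149 and 2856 with irradiation. The ranges overlapped almost fully, with means of 2396 ± 349 and 2407 ± 391 (SD, n = 3). The log2 change was 0.0051 with a 95% confidence interval from -0.26 to 0.27 (limma adjusted p = 0.992), an interval that includes changes of up to that size in either direction.

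Ckap5 encodes the polymerase that adds dimers to growing plus ends and travels with TACC3 to the spindle. Its intensities (1388405_at) were 351, 299 and 218 without and 288, 347 and 531 with irradiation. The spread within each group was the widest of the 8 genes by coefficient of variation, 23.2% and 32.6%. The log2 change was 0.39 with a 95% confidence interval from -0.043 to 0.82 (limma adjusted p = 0.438). It was 0.15 without irradiated replicate 3 and 0.21 without unirradiated replicate 3.

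Mapre1 encodes EB1, which tracks growing plus ends and recruits other proteins to them. Its main probe set (1373397_at) read 1483, 1495 and 1690 without and 1603, 1535 and 1819 with irradiation, so the ranges overlapped. The log2 change was 0.085, with a 95% confidence interval from -0.10 to 0.27 (limma adjusted p = 0.745). The other 2 probe sets of Mapre1 gave 0.15 each and also overlapped between the groups.

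**Figure D3:**
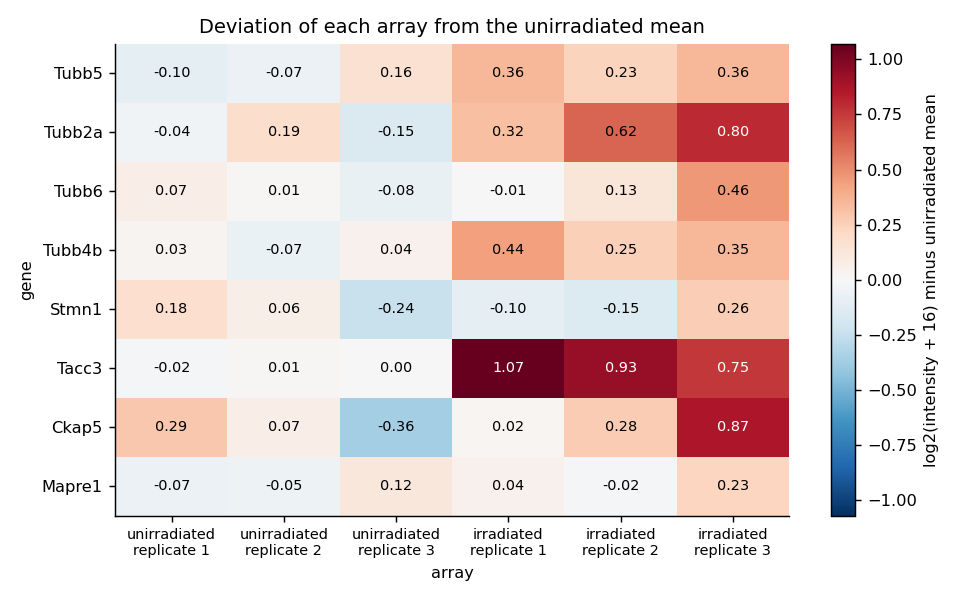
Log2(intensity + 16) of the 8 measured genes (vertical axis) in each of the 6 arrays (horizontal axis) as the difference from the gene's unirradiated mean, red above and blue below. Irradiated replicate 3 holds 0.87 for Ckap5, 0.46 for Tubb6 and 0.26 for Stmn1, where the other irradiated arrays are lower, while Tacc3 is highest in irradiated replicate 1 at 1.07.

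One irradiated array was often the highest. Irradiated replicate 3 was the highest irradiated array in 5 of the 8 genes (Tubb2a, Tubb6, Stmn1, Ckap5 and Mapre1), while replicate 1 was in 2 (Tubb4b and Tacc3) and replicates 1 and 3 tied for Tubb5. Over all tested genes without a tie it was the highest irradiated array in 31.8%. The median deviation of the 8 genes from their unirradiated means was 0.18, 0.24 and 0.41 in irradiated replicates 1, 2 and 3. Over all tested genes the same medians were 0.0064, 0.0094 and -0.0056. Without irradiated replicate 3 the median log2 change of the 8 genes was 0.22 and Tacc3 remained called, with a change of 1.00.

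The gene whose profile over the 6 arrays was most like that of Tacc3 was Dgkz, by a Pearson r of 0.998 of log2 values. It was followed by Cdc20 (0.997), which activates the anaphase-promoting complex, Wwox (0.996), Iqgap3 (0.994) and Pttg1 (0.993), which encodes securin. The log2 changes of these 5 genes were 0.17, 0.71, 0.60, 0.64 and 0.57 in that order, and Dgkz alone among them did not pass (limma adjusted p = 0.432). The call of Wwox ended in 6 of 18 alternative settings, and its change was 0.35 with its probe sets averaged (limma adjusted p = 0.179). The correlation ignores the size of a change, and in 6 arrays it rests mainly on the gap between the groups: 176 of 10346 genes outside the 8 exceeded an r of 0.95.

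The rest of the microtubule system was taken from 9 lists of 133 genes, of which 102 were tested. These lists too were drawn up with earlier results of these data known. Limma called 7 of them higher and 0 lower, against the 2% and 0.773% of all tested genes given above, and 61 had a log2 change above 0. At an unadjusted p under 0.05, 25 of them were higher and 4 lower, against the 8.77% and 6.93% of all tested genes. The median log2 change of the 102 genes was 0.044. The 7 were Kif18b, Kif2c, Aurka, Gtse1, Aurkb, Cdk1 and Haus7.

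In a list drawn up around microtubule shortening and severing, limma called 2 of 10 tested genes higher and 0 lower. The shares over all tested genes were 2% higher and 0.773% lower. Both called genes encode kinesins that remove dimers from microtubule ends in mitosis. Kif2c rose from 205, 252 and 211 to 374, 457 and 442, a log2 change of 0.89 with an SE of 0.11 (limma adjusted p = 9.7e-04), and a second probe set of it also passed, at 0.77. Kif18b rose from 466, 457 and 460 to 843, 868 and 798, a log2 change of 0.84 with an SE of 0.078 (limma adjusted p = 1.9e-04). In both genes every irradiated array was well above every unirradiated one. The median of the list was 0.085, with 8 genes above 0 and 2 below.

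Of 5 tested partners of the proteins of Tacc3 and Ckap5, limma called 2 higher and 0 lower. Over all tested genes the shares were 2% and 0.773%. Aurka, the kinase that phosphorylates TACC3, rose from 815, 723 and 613 to 1406, 1296 and 1342, a log2 change of 0.90 with an SE of 0.099 (limma adjusted p = 3.8e-04). Gtse1, a microtubule-binding protein of G2 and mitosis that binds clathrin at the spindle, rose from 333, 354 and 410 to 645, 604 and 533, with a log2 change of 0.68. The other 3 had log2 changes below 0 and did not pass, so the median of the list was -0.046.

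Of 5 tested genes from a list of kinases that phosphorylate stathmin and the stathmin-binding protein Siva1, limma called 2 higher and 0 lower. Over all tested genes the shares called were 2% and 0.773%. The 2 were Cdk1, from a mean of 1117 ± 148 to 1709 ± 220.5, and Aurkb, from 297 ± 29.2 to 473 ± 44.2 (SD, n = 3). Their log2 changes were 0.61 and 0.64, while Stmn1 itself was at 0.0051. The call of Cdk1 ended without irradiated replicate 2 (limma adjusted p = 0.0564), without the filter (0.0684) and without the intensity trend (0.110), and that of Aurkb without the trend (0.0532).

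Genes of microtubule nucleation, which encode the ring complex that seeds microtubules and the augmin complex that branches them, had 1 gene that rose of 14 tested. This was the augmin subunit Haus7, from 253, 254 and 249 to 353, 351 and 344, a log2 change of 0.45 (limma adjusted p = 0.0177). Its values varied little within each group. The call was lost when replicate 1 or 2 of either group was left out (limma adjusted p up to 0.107) and without the intensity trend (0.0743). The 1 call of 14 stands against 2% of all tested genes called higher. At an unadjusted p under 0.05, 7 of the 14 were higher and 0 lower, against 8.77% and 6.93% of all tested genes. Of the list, 13 of 14 genes had a log2 change above 0, with a median of 0.27 that stayed between 0.23 and 0.31 in all alternative settings.

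The lists of other tubulins, tubulin folding, plus-end binding and stabilising proteins, tubulin modification and tubulin mRNA autoregulation held 0 limma calls among 68 tested genes together, where the shares called over all tested genes were 2% higher and 0.773% lower, so that a count of 0 is near the background. At an unadjusted p under 0.05, 9 of the 68 were higher and 4 lower, against 8.77% and 6.93% of all tested genes. Among 6 other tubulins, the epsilon-tubulin gene Tube1 had a log2 change of 0.39 and the gamma-tubulin gene Tubg1 of 0.23, but the list was split, with 3 genes above and 3 below 0. Tubb4a, named after its values were seen as the largest change of the list, was at -0.48 and overlapped between the groups. Of 20 genes of the prefoldin, chaperonin and cofactor steps that fold tubulin, 17 were below 0 on the log2 scale and the median was -0.090, the smallest p being those of Cct6a (-0.17) and Pfdn6 (-0.22). Of these 20 genes, 10 lay in the brightest 10% of tested probe sets, where 70.4% were below 0 and the median was -0.066, and the part of brightness in this count was not tested. The median of the list was -0.053 to -0.12 over the alternatives. Among 24 plus-end and stabilising genes, Map1b had a log2 change of -0.31 and Clasp1 of 0.29, and the median of 0.016 changed sign with median centring (-0.016). Among 11 tubulin-modifying enzymes, the deacetylase gene Hdac6 had a log2 change of 0.37 (limma adjusted p = 0.0843, and 0.0362 without unirradiated replicate 3) and Vash2, of tubulin detyrosination, of 0.45. Among 7 genes of the pathway that degrades tubulin mRNA when free tubulin is abundant, Cnot1 had a log2 change of 0.21 and Cnot11 of -0.13.

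A list of 28 tested actin cytoskeleton genes was taken for comparison. Limma called 0 of them, a count near the shares of 2% higher and 0.773% lower over all tested genes. At an unadjusted p under 0.05, 1 was higher and 0 lower, against 8.77% and 6.93% of all tested genes. Of the list, 18 had a log2 change below 0, and the median was -0.054, with Diaph1 at 0.31 and Tpm1 at -0.21. Of the 28 genes, 20 lay in the brightest 10% of tested probe sets, as did 5 of the 8 microtubule genes. The median of the actin list turned to 0.014 with quantile normalization and with cyclic loess normalization, while the median of the 8 microtubule genes was 0.41 and 0.40 under those settings. Whether the lists differ was not tested.

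**Figure D4:**
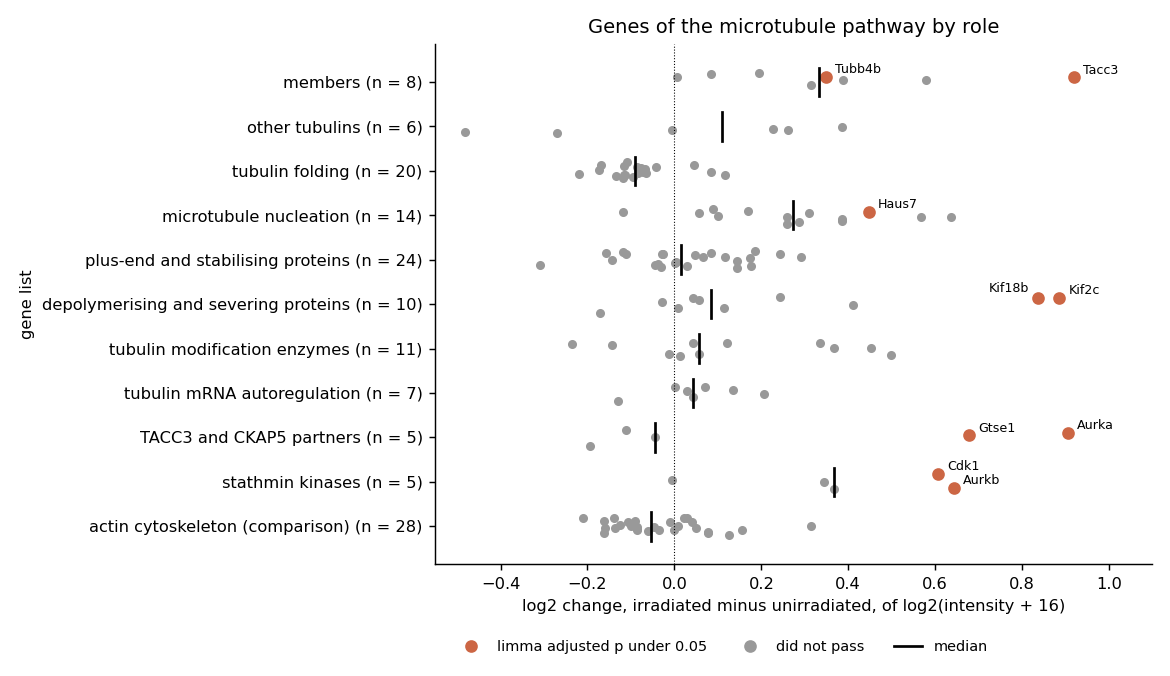
Log2 change, irradiated minus unirradiated, of every tested gene (points, 1 main probe set per gene) in the 8 measured genes and in each list, with orange points for limma adjusted p under 0.05 and a black line at the median. The orange points are Tubb4b, Tacc3, Haus7, Kif18b, Kif2c, Gtse1, Aurka, Cdk1 and Aurkb, all right of 0, and no point of the folding or actin lists is orange.

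The labelled cell type and the arrays were checked against values that could move with these results. All 13 measured keratinocyte markers had a mean intensity above 100, and their summed intensity was 33070.2 to 38091 without and 27749 to 30562 with irradiation. Markers of fibroblasts summed to 488 to 565 without and 439 to 462 with irradiation, of which the collagen gene Col3a1 made up the larger part. Its mean went from 413 to 295. The means of Col1a1 (17.3 to 36.1), Col1a2 (4.43 to 10.5) and Dcn (4.87 to 10.2) went up at low intensity. Vim was at 73.8 and 74.8, Pdgfra at 13.8 and 16.1, and Lum and Pdgfrb were near 5. Only 3 of these 8 markers passed the filter on low values. Markers of melanocytes, immune, endothelial and muscle cells each summed to 74.1 or less on every array. Pairs of arrays of the same group correlated at 0.984 to 0.988 over tested probe sets, and pairs across groups at 0.980 to 0.984. The part that the lower keratinocyte marker sum or the brightness of a probe set has in the results above was not tested.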

How the data were processed

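Per the labels' protocols, Trizol was used for extraction, and biotin-labelled cRNA was made from polyA RNA. Per the design text, BRB ArrayTools 3.3.0 was used; the sources used here do not give how probes were summarised. The authors deposited probe set intensities on a linear scale, and the deposited arrays share a mean trimmed by 2% at each end of 150.04 to 150.05, so they were used without further normalization. Of 31099 probe sets, 57 controls and those below the 40th percentile of mean intensity were left out, which left 18632. Values were tested as log2(intensity + 16) with limma 3.58.1 in R 4.3.3 (lmFit, eBayes with an intensity trend, two-sided, no covariate), with Benjamini-Hochberg adjustment across the 18632 probe sets; the procedure was tested on simulated data. Precision is limited by having 3 arrays per group, with a median SE of 0.14 on the log2 scale. Symbols were taken from the platform annotation, and upstream sequences from RefSeq (GRCr8), where all 10 genes matched by symbol. The genes named were the 10 listed ones, in each other list up to 5 called genes or else the 2 with the smallest p, and the 5 genes most like the listed gene with the smallest p. The members, the lists, the test and the alternatives were chosen with earlier results of these data known. Motifs were chosen after seeing the data. The alternatives used a pseudocount of 1 or 64, a floor of 10, quantile, median and cyclic loess normalization, no filter, the 60th percentile, eBayes without trend or robust, probe sets averaged or 1 per gene, and leaving out each array.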

Additional observations from a re-analysis of the deposited data

How the results depend on the processing

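Of 144 values of the 8 measured genes under 18 alternative settings, 129 kept their direction and their side of the threshold, 8 lost a call (all Tubb4b), 4 gained one (3 for Tubb5, 1 for Tubb2a) and 3 changed sign (all Stmn1). The change of Stmn1 was -0.027 with median centring and -0.12 to 0.094 with 1 array left out, being below 0 without unirradiated replicate 3 or irradiated replicate 3. The number of the 8 genes called higher was 1 with median centring, without a filter and without an intensity trend, 1 to 2 with 1 array left out, and 3 with quantile normalization, cyclic loess normalization or averaged probe sets. The number of all probe sets called, 385, was 223 without a filter, 170 without a trend, and 201 to 286 with 1 array left out, the low values being without irradiated replicate 2 (201), unirradiated replicate 1 (227) and irradiated replicate 1 (229). Genes of the other microtubule lists called higher were 4 without a trend and 5 to 8 with 1 array left out, against 7. Called lower were 0 of the 8 genes and 0 of the other listed genes in all 18 settings. Of all calls 72.7% were higher, against 67.0% with median centring and 84.7% without a trend, the lowest and highest of the 18 settings. With 3 arrays a group, the change of Tubb5 passed in some settings only, and those of Tubb6, Ckap5 and Mapre1 in none. The change of Ckap5, 0.39, was larger than that of Tubb5, 0.32, but had an SE of 0.20 against 0.083. The replicate numbers used here count the arrays within each group. No label pairs an unirradiated sample with an irradiated one, so no paired analysis was made.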
